A study of Caenorhabditis elegans with 12 samples.

Results

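The 26S proteasome is the machine that degrades ubiquitin-tagged proteins, and its subunits are encoded in Caenorhabditis elegans by genes named pas-, pbs-, rpt- and rpn-. All protein-coding genes with a symbol of one of these 4 kinds in the WBcel235 annotation were taken, which gave 33 genes of the 46926 measured. They comprise 14 core genes (pas-1 to pas-7 and pbs-1 to pbs-7) and 19 genes of the regulatory particle (rpt-1 to rpt-6 and 13 rpn genes). The transcriptomes came from whole worms at the fourth larval stage (L4), grown on HT115 bacteria that carried an empty RNAi vector, with about 1000 worms per culture, and 3 biological replicates were labelled for each of 4 strains. The strains were the wild type N2, the itr-1(sa73) mutant, the nuo-6(qm200) mutant, and the double mutant, labelled nuo-6; itr-1. The gene itr-1 encodes the inositol trisphosphate (InsP3) receptor, a calcium channel of the endoplasmic reticulum, and nuo-6 encodes a subunit of mitochondrial complex I. Both alleles are known as missense changes carried by every cell, so transcript levels of itr-1 and nuo-6 do not check the labels. The study's title names InsP3 receptor signalling and mitochondrial stress-induced longevity, and the design crosses the 2 mutations.

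The core particle is a barrel of alpha rings (pas genes) that gate the entrance and beta rings (pbs genes) that hold the proteolytic sites. The regulatory particle caps the barrel: its base contains a ring of ATPases (rpt genes) that unfold substrates together with the non-ATPase subunits rpn-1, rpn-2, rpn-10 and rpn-13, and its lid (the other rpn genes) removes the ubiquitin chain. In C. elegans, transcription of the subunit genes is raised through the transcription factor SKN-1A when proteasome capacity falls short, and loss of proteasome function in larvae causes arrest. Proteasome activity is also known as a determinant of lifespan in long-lived worms, and extra RPN-6.1 is known to lengthen life under proteotoxic stress.

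Transcript levels are in TPM, which corrects for gene length and sums to the same total in every library, so a level says nothing of the amount of RNA per worm and the read depth is unknown. Levels are given as TPM (mean ± SD, n = 3 libraries), and differences as log2 folds ± SE on the log2(TPM + 1) scale from a limma model over all 12 libraries. A gene is said to have risen or fallen where the Benjamini-Hochberg adjusted p over the 15230 genes tested was under 0.05. In whole worms, fewer cells of a type and less RNA per cell cannot be told apart. Between 13879 and 14902 genes per library reached 1 TPM. No defining marker of germ cells, sperm, intestine, muscle, hypodermis or neurons among those found was at 0 in all 12 libraries. Zeros within a single strain were not checked. The mean log2(TPM + 1) of 15 oocyte markers ranged over the N2 libraries from 3.17 to 4.08, over itr-1 from 4.68 to 5.82, over nuo-6 from 4.44 to 4.67 and over the double mutant from 4.19 to 5.51. The libraries numbered 2 had the highest value in each strain, and those of itr-1 (5.82) and the double mutant (5.51) stood apart from the other 10. Cytosolic ribosomal protein genes took between 28.2% and 29.4% of TPM in N2, between 26.7% and 28.3% in itr-1, between 22.4% and 22.7% in nuo-6, and between 23.4% and 24.9% with both mutations.

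All 33 proteasome genes were detected in every library, and all 33 passed the filter of at least 1 TPM in at least 3 libraries. Their median mean level over the 12 libraries was 136 TPM, above the mean level of 93.2% of the protein-coding genes tested. Core transcripts were more abundant than regulatory ones: the median was 171 TPM over the 14 core genes and 110.2 TPM over the 19 regulatory genes. Within the regulatory particle the median was 111 TPM for the ATPases, 89.1 TPM for the other base subunits and 113 TPM for the lid. The spread between libraries of a strain was small, with a coefficient of variation from 0.241% to 15.1% and a median of 3.72% over genes and strains.

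In the alpha ring, pas-3 was the most abundant of the 33 transcripts (chromosome I, 5105110 to 5106048, WBcel235). Its level was 264, 265 and 268 TPM in the N2 libraries, 242, 239 and 233 in itr-1, 216, 215 and 217 in nuo-6, and 217, 215 and 209.9 in the double mutant. The 4 strains formed 3 tiers, with N2 above itr-1, and itr-1 above the other strains, and the nuo-6 and double mutant libraries overlapped. The least abundant alpha subunit, pas-1 (chromosome V, 14421566 to 14422618), was at 171 ± 5.68 TPM in N2, 157 ± 3.59 in itr-1, 133 ± 3.04 in nuo-6 and 133 ± 1.93 in the double mutant. It showed the same order of strains as pas-3.

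The 3 catalytic beta subunits are pbs-1, pbs-2 and pbs-5, orthologues of the mammalian subunits with caspase-like, trypsin-like and chymotrypsin-like activity. The highest beta transcript, pbs-1 (chromosome IV, 1708814 to 1709745), stood at 232, 239 and 243 TPM in N2, 234, 239 and 227 in itr-1, 196, 177 and 189.8 in nuo-6, and 199, 197 and 180.1 in the double mutant. The lowest, pbs-2 (chromosome I, 12967216 to 12968280), was measured at 128, 134 and 132 TPM in N2, 124, 134 and 130.4 in itr-1, 100.1, 88.8 and 96.7 in nuo-6, and 97.4, 97.4 and 97.0 in the double mutant. For pbs-5 (chromosome I, 14719167 to 14720477) the values were 207, 225 and 216 TPM in N2, 205, 208 and 206 in itr-1, 181, 164 and 171 in nuo-6, and 174, 173 and 170.4 in the double mutant. In all 3 genes the N2 and itr-1 libraries overlapped, the nuo-6 and double mutant libraries overlapped, and these 2 pairs of strains were apart.

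Among the base ATPases, rpt-2 was the highest, at 185 ± 5.16 TPM in N2, 174 ± 5.29 in itr-1, 147 ± 9.16 in nuo-6 and 146 ± 11 in the double mutant, and in yeast its product is one of the ATPases whose tails open the gate of the alpha ring. The lowest ATPase, rpt-6, was at 114 ± 3.14, 106 ± 5.41, 92.5 ± 2.62 and 96.6 ± 2.5 TPM in the same order of strains. The ubiquitin receptor rpn-10 was the highest of the other base transcripts, at 110.3 ± 5.96, 103 ± 4.96, 90.96 ± 4.13 and 93.4 ± 3.43 TPM. The other ubiquitin receptor, rpn-13, was the lowest, at 84.4 ± 2.41, 85.3 ± 4.87, 69.3 ± 3.36 and 70.9 ± 4.58 TPM. Every one of these 4 genes had lower libraries in nuo-6 and in the double mutant than in N2, with no overlap.

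Levels in the lid spanned the widest range, from 15.3 to 159 TPM on average. Its most abundant transcript was rpn-11 (chromosome II, 4043055 to 4044546), which encodes the deubiquitinase of the lid, at 163, 171 and 160.0 TPM in N2, 166, 181 and 166 in itr-1, 158, 142 and 145 in nuo-6, and 157, 158 and 146 in the double mutant. The highest nuo-6 library stood only just under the lowest N2 library. The gene rpn-6.1 (chromosome III, 6959110 to 6962001), whose product clamps the lid to the core, was at 92.7, 102 and 97.4 TPM in N2, 93.2, 103 and 94.0 in itr-1, 92.9, 82.2 and 86.6 in nuo-6, and 87.2, 91.4 and 82.1 in the double mutant, so that 1 nuo-6 library lay within the N2 range. Its paralogue rpn-6.2 (chromosome III, 8999817 to 9001999) was the least abundant of the 33, at 18.5, 20.6 and 20.4 TPM in N2, 15.8, 17.3 and 16.8 in itr-1, 13.03, 14.01 and 13.04 in nuo-6, and 12.2, 12.6 and 9.44 in the double mutant. For rpn-6.2 each strain's libraries lay wholly below those of the strain named before it. How reads shared by the rpn-6 paralogues were assigned is not given in the sources used here, so the split between them is uncertain.

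**Figure D1:**
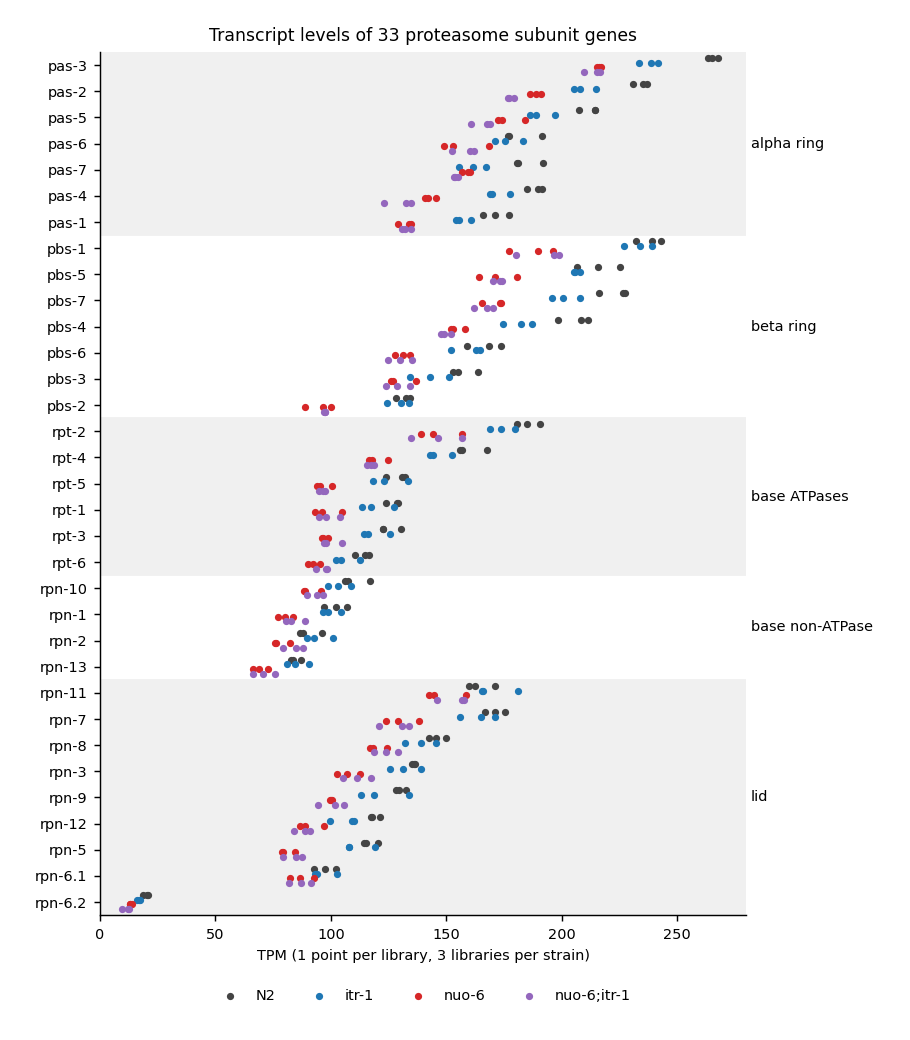
Transcript level (TPM, horizontal axis) of each of the 33 proteasome subunit genes, with 1 point per library and a colour per strain, grouped by the part of the particle they encode. The nuo-6 and double mutant points lie to the left of the N2 points for nearly all genes, and rpn-6.2 stands far below the rest at 9.44 to 20.6 TPM.

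The first comparison, nuo-6 against N2, sets the strain with the complex I mutation and intact itr-1 beside the wild type. Proteasome transcripts were lower as a set: 31 of the 33 genes fell and none rose, and the nuo-6 levels ranged from 67.3% to 90.3% of N2 with a median of 78.8%. Over all 15230 genes tested, 15% fell and 37.3% rose in this comparison. In 32 genes every nuo-6 library lay below every N2 library, against 19.9% of all genes tested. The median log2 fold was -0.34 over the 33 genes (range -0.54 to -0.15) and 0.18 over all genes tested. Beside this result, 10 of 15 oocyte markers were higher in nuo-6 and none was lower, 10 of 34 sperm markers were higher and 2 lower, and 5 of 8 neuron markers were higher (382 to 403 TPM summed in N2, 516 to 569 in nuo-6). Of 8 germ nuclei markers 1 was higher and 2 lower (595 to 694 TPM summed in N2, 520 to 526 in nuo-6). Of 6 intestine markers 3 were higher and 1 lower. Of 6 hypodermis markers 1 was higher and 2 lower (2301 to 2641 TPM summed in N2, 1536 to 1965 in nuo-6), and of 8 body wall muscle markers 2 were higher and 2 lower (5967 to 6141 and 5820 to 5955 TPM). The part of tissue content in the result was not tested. With the oocyte marker mean as a covariate 33 genes fell, but that mean did not overlap between N2 (3.17 to 4.08) and nuo-6 (4.44 to 4.67). Such a fit cannot tell oocyte content from strain.

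All parts of the particle took part in the nuo-6 difference. All 14 core genes fell (median log2 fold -0.33), with 7 of 7 in the alpha ring (median -0.30) and 7 of 7 in the beta ring (median -0.35). In the regulatory particle 17 of 19 genes fell (median -0.34), namely 6 of 6 ATPases (median -0.37), 4 of 4 other base genes (median -0.28) and 7 of 9 lid genes (median -0.38). The smallest adjusted p belonged to pbs-4, a structural beta subunit, which went from 209, 198 and 211 TPM in N2 to 158, 152 and 153 in nuo-6 (log2 fold -0.42 ± 0.04, adjusted p = 2.38e-05). The catalytic subunit pbs-2 fell by 0.47 on the log2 scale (SE 0.05, adjusted p = 3.52e-05), and the beta subunit pbs-7 fell by 0.39 (SE 0.04, adjusted p = 3.86e-05). Among regulatory genes the lid subunit rpn-5 went from 115.2, 120.3 and 114 TPM to 84.6, 78.7 and 79.4 (log2 fold -0.52 ± 0.06, adjusted p = 3.13e-05). The largest fold was that of rpn-6.2, at -0.54 ± 0.10 (adjusted p = 0.00103), and the ATPase gene rpt-4 fell by 0.42 (SE 0.05, adjusted p = 4.28e-05).

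The 2 genes that did not pass were both in the lid. For rpn-11 the log2 fold was -0.15 ± 0.06 (adjusted p = 0.0545), and with the replicate number as a block it was the same size with an adjusted p of 0.0438. For rpn-6.1 it was -0.16 ± 0.07 (adjusted p = 0.0643). Both folds were negative, and both genes passed with median-of-ratios scaling (adjusted p = 0.000481 and 0.000562). Of the 31 genes that fell, 29 did so under all 22 alternatives, while the base scaffold gene rpn-2 (log2 fold -0.21 ± 0.07, adjusted p = 0.0221) lost its call without N2 replicate 2 (adjusted p = 0.0817), without nuo-6 replicate 2 (0.0704) or 3 (0.0738) and without all libraries numbered 2 (0.111). The alpha subunit gene pas-6 lost its call in that last setting alone (adjusted p = 0.106).

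**Figure D2:**
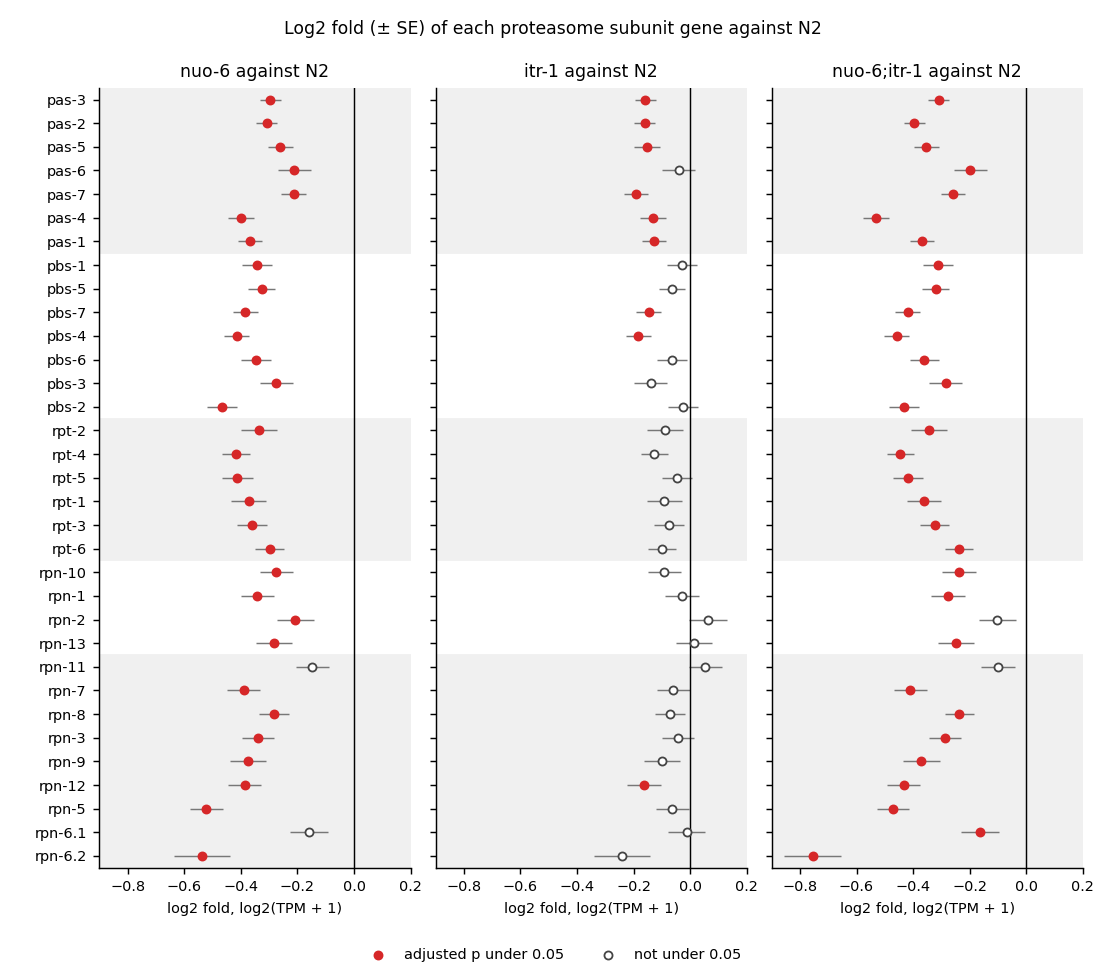
Log2 fold against N2 on the log2(TPM + 1) scale (horizontal axis, point and SE bar) of each proteasome gene in the nuo-6 mutant, the itr-1 mutant and the double mutant, with filled points for adjusted p under 0.05. Filled points number 31, 9 and 31 from left to right, all to the left of 0, and the middle panel lies closer to 0 than the others.

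The second comparison, itr-1 against N2, sets the strain with the InsP3 receptor mutation alone beside the wild type. The differences were smaller: 9 of the 33 genes fell and none rose, the median level was 93.9% of N2, and the range was 83.8% to 105%. Over all genes tested, 11.1% fell and 29% rose. In 13 proteasome genes every itr-1 library lay below every N2 library, against 14.5% of all genes. The median log2 fold was -0.09 (range -0.24 to 0.06), beside 0.14 over all genes tested. After quantile normalization these medians were -0.07 and -0.04, so the distance between them went from -0.23 to -0.03.

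The calls in itr-1 lay mainly in the core particle. In the alpha ring 6 of 7 genes fell (median log2 fold -0.15), all but pas-6 (-0.04 ± 0.06, adjusted p = 0.600). In the beta ring 2 of 7 fell, pbs-4 and pbs-7 (median of the ring -0.06), and in the regulatory particle 1 of 19, the lid gene rpn-12 (median -0.07). The gene pas-7 went from 181, 181 and 192 TPM in N2 to 167, 161 and 156 in itr-1 (log2 fold -0.19 ± 0.04, adjusted p = 0.00611). The next were pas-3 (-0.16 ± 0.04, adjusted p = 0.00653) and pas-2 (-0.16 ± 0.04, adjusted p = 0.00726), and pbs-4 fell by 0.18 (SE 0.04, adjusted p = 0.00864). For rpn-12 the values were 118, 117 and 121 TPM in N2 and 110.0, 109 and 99.5 in itr-1 (log2 fold -0.16 ± 0.06, adjusted p = 0.0485), and the call was lost in 13 of 22 alternatives. Several core calls were also unstable: pas-4 kept its call in 10 of 22, pas-1 in 12, pas-5 in 16 and pbs-7 in 17. The calls of pas-7 and pbs-4 were kept in 21, and those of pas-2 and pas-3 in 22. The catalytic genes pbs-1, pbs-2 and pbs-5 had log2 folds of -0.03, -0.03 and -0.06 and did not pass.

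How many proteasome genes were called in itr-1 depended on the scaling and on single libraries. With median-of-ratios scaling 30 genes fell, 14 core and 16 regulatory, while 8 fell after quantile normalization, and leaving out a library gave 4 to 11 (4 without itr-1 replicate 1, 5 without N2 replicate 2, N2 replicate 3 or itr-1 replicate 3). Without all libraries numbered 2 the count was 4, and with the oocyte marker mean as a covariate it was 7, of which 4 were core and 3 regulatory. Sperm markers were higher in itr-1 in 27 of 34 cases and lower in 1, oocyte markers were higher in 14 of 15, and 5 of 8 body wall muscle markers were lower (5058 to 5154 TPM summed, against 5967 to 6141 in N2). Of 6 hypodermis markers 2 were higher and 3 lower (1375 to 1975 TPM summed, against 2301 to 2641 in N2). Higher with none lower were 3 of 8 germ nuclei, 3 of 6 intestine and 3 of 8 neuron markers. Their part in the result was not tested. The oocyte marker means of itr-1 and N2 did not overlap, so the covariate cannot tell oocyte content from strain.

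The double mutant carried proteasome transcripts at a median of 78.7% of N2 (57.5% to 93.3%). Against N2, 31 of 33 genes fell and none rose, where 17% of all genes tested fell and 46.3% rose, and in 32 genes the libraries did not overlap (19% of all genes were lower without overlap). The median log2 fold was -0.35, beside 0.25 over all genes. Beside this result, 12 of 15 oocyte markers were higher. So were 8 of 8 neuron markers (summed 590 to 649 TPM, against 382 to 403 in N2). Lower were 5 of 8 body wall muscle markers (4581 to 4613 TPM, against 5967 to 6141). Of 6 hypodermis markers 2 were higher and 1 lower, with a sum of 1545 to 1641 TPM, against 2301 to 2641 in N2. The mean log2(TPM + 1) of these 6 was 6.14 to 6.30, against 6.16 to 6.23 in N2. Of 34 sperm markers 6 were higher and 4 lower (1221 to 3354 TPM summed, against 1437 to 2027 in N2). Of 8 germ nuclei markers 2 were higher and 2 lower, and of 6 intestine markers 4 were higher and none lower. The part of tissue content was not tested. With the oocyte covariate 33 proteasome genes fell, but oocyte marker means did not overlap between N2 (3.17 to 4.08) and the double mutant (4.19 to 5.51). That fit cannot tell oocyte content from strain. The alpha subunit gene pas-4 went from 185, 191 and 189.7 TPM in N2 to 133, 135 and 123 (log2 fold -0.53 ± 0.05, adjusted p = 3.54e-06), and rpn-6.2 fell by 0.76 (SE 0.10, adjusted p = 7.08e-05). Further named falls were those of pas-2 (-0.40 ± 0.04, adjusted p = 6.31e-06), pbs-4 (-0.46 ± 0.04, adjusted p = 7.18e-06), pbs-7 (-0.42 ± 0.04, adjusted p = 1.37e-05) and rpn-5 (-0.47 ± 0.06, adjusted p = 4.19e-05). The genes that did not pass were rpn-11 (-0.10 ± 0.06, adjusted p = 0.158) and rpn-2 (-0.10 ± 0.07, adjusted p = 0.199). Of the 31 called, rpn-6.1 was close to the threshold (adjusted p = 0.0486) and kept its call in 11 of 22 alternatives (adjusted p up to 0.158), and pas-6 kept it in 21.

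No proteasome gene differed detectably when the itr-1 mutation was added to nuo-6. Between the double mutant and nuo-6, 0 of 33 genes passed in limma in either direction, and 2 were lower and 0 higher at an unadjusted p under 0.05. Over all genes tested, 9.99% rose and 5.46% fell. The median log2 fold was 0.00, with a range from -0.22 to 0.11. In 5 genes every double mutant library was below every nuo-6 library (12.5% of all genes), and among them pas-4 had 133, 135 and 123 TPM against 146, 141 and 142 (log2 fold -0.13 ± 0.05, adjusted p = 0.0767) and rpn-6.2 had 12.2, 12.6 and 9.44 against 13.03, 14.01 and 13.04 (-0.22 ± 0.10, adjusted p = 0.164). Other scalings called a few: pas-2, pas-4 and pas-5 were lower with median-of-ratios scaling, rpn-6.2 after quantile normalization, and pas-4 and rpn-6.2 with the oocyte covariate.

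Proteasome transcripts were lower when the nuo-6 mutation was added to itr-1. In the double mutant against itr-1, 27 of 33 fell and none rose, where 16.4% of all genes fell and 29.3% rose, and all 33 genes had no overlap between the libraries (17.6% of all genes were lower without overlap). The median log2 fold was -0.26. The falls named here are pas-4 (-0.40 ± 0.05, adjusted p = 7.66e-05), pbs-2 (-0.41 ± 0.05, adjusted p = 0.000157), rpn-5 (-0.41 ± 0.06, adjusted p = 0.000289), the ATPase gene rpt-5 (-0.37 ± 0.05, adjusted p = 0.000345) and rpn-6.2 (-0.51 ± 0.10, adjusted p = 0.00201). Those that did not pass were pas-7, pbs-3, rpn-2, rpn-6.1, rpn-10 and rpn-11, with log2 folds from -0.17 to -0.07. Among the 27 called, pas-6 and rpt-6 kept the call in 9 of 22 alternatives each and rpn-8 in 16.

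The interaction asks whether the nuo-6 difference depends on itr-1. None of the 33 genes passed in limma (4 were above 0 and 0 below at an unadjusted p under 0.05), where 3.69% of all genes passed upwards and 8.32% downwards. The nuo-6 difference was less negative with mutant itr-1 in 31 of 33 genes, by a median of 0.09 on the log2 scale (range -0.00 to 0.16, with SE from 0.05 to 0.14), beside -0.05 over all genes tested, of which 6563 of 15230 were less negative or more positive in that background. After quantile normalization the medians were 0.09 and 0.07, so the distance between them went from 0.15 to 0.02. Median-of-ratios scaling called 3 of them, pas-3 (0.24 ± 0.06, adjusted p = 0.0296), pas-7 (0.24 ± 0.07, adjusted p = 0.0456) and rpt-6 (0.25 ± 0.07, adjusted p = 0.0431), whereas quantile normalization and TPM without ribosomal genes called pas-3 alone. The 2 nuo-6 differences share no library, and across the 33 genes their folds were correlated with a Pearson r of 0.883 and a Spearman rho of 0.882, against 0.574 and 0.582 across all tested genes. Genes are not independent replicates, and these coefficients are given without a test.

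**Figure D3:**
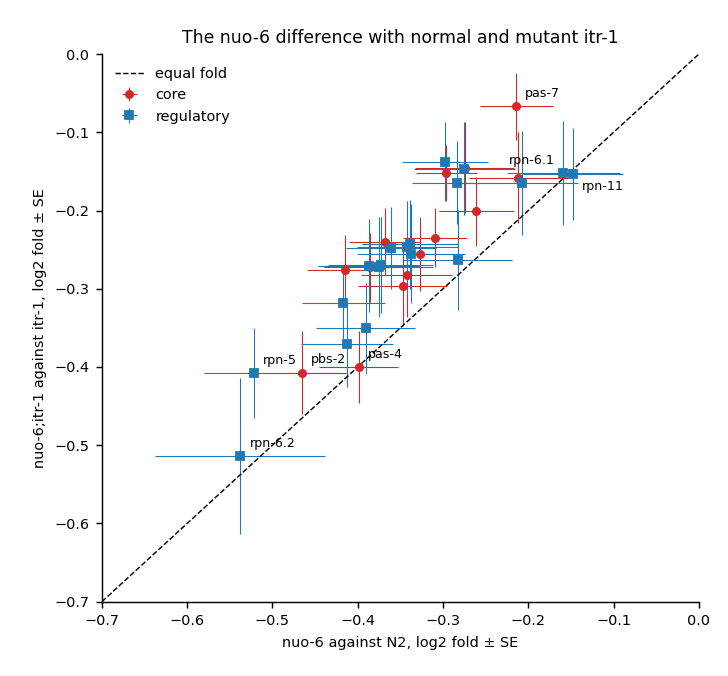
Log2 fold ± SE of nuo-6 against N2 (horizontal axis) and of the double mutant against itr-1 (vertical axis) for the 33 proteasome genes, with the dashed line at equal folds. All points lie below 0 on both axes, 31 lie above the line, and pas-4 and rpn-11 lie on or just under it.

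The balance between core and regulatory transcripts was compared in each library as the mean log2(TPM + 1) of the 14 core genes minus that of the 19 regulatory genes, as a description with no test. It was 0.77 ± 0.02 in N2, 0.72 ± 0.04 in itr-1, 0.78 ± 0.02 in nuo-6 and 0.74 ± 0.05 in the double mutant (mean ± SD, n = 3). The difference from N2 was 0.01 in nuo-6, -0.05 in itr-1 and -0.03 in the double mutant, against a pooled SD of 0.0334 between libraries of a strain. These directions were not stable in every setting. With the oocyte covariate the differences were 0.0679, 0.0421 and 0.0437, so those of itr-1 and the double mutant turned. Oocyte marker means of each mutant strain did not overlap those of N2, so that fit cannot tell oocyte content from strain. Leaving out single libraries took the nuo-6 value from -0.0042 to 0.0195. The itr-1 value then stayed negative (-0.0621 to -0.0280), as did that of the double mutant (-0.0514 to -0.0051). In single libraries core minus regulatory was 0.782, 0.744 and 0.790 in N2, 0.740, 0.683 and 0.748 in itr-1, 0.762, 0.779 and 0.804 in nuo-6, and 0.748, 0.693 and 0.786 in the double mutant. The lowest 2 values were those of itr-1 replicate 2 and double mutant replicate 2, the libraries with the highest oocyte marker means. In summed TPM the core genes gave between 2726 and 2808 in N2, between 2502 and 2624 in itr-1, between 2158 and 2277 in nuo-6, and between 2120.4 and 2205 with both mutations. The regulatory genes gave 2272 to 2399, 2139 to 2354, 1793 to 1936 and 1787 to 1947 in the same order. Both sums were therefore lower in nuo-6 and in the double mutant than in any N2 or itr-1 library, and for the core alone the itr-1 libraries were all below N2. All 33 genes together made up between 0.4998% and 0.521% of TPM in N2, between 0.464% and 0.498% in itr-1, between 0.395% and 0.421% in nuo-6, and between 0.391% and 0.413% with both mutations.

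**Figure D4:**
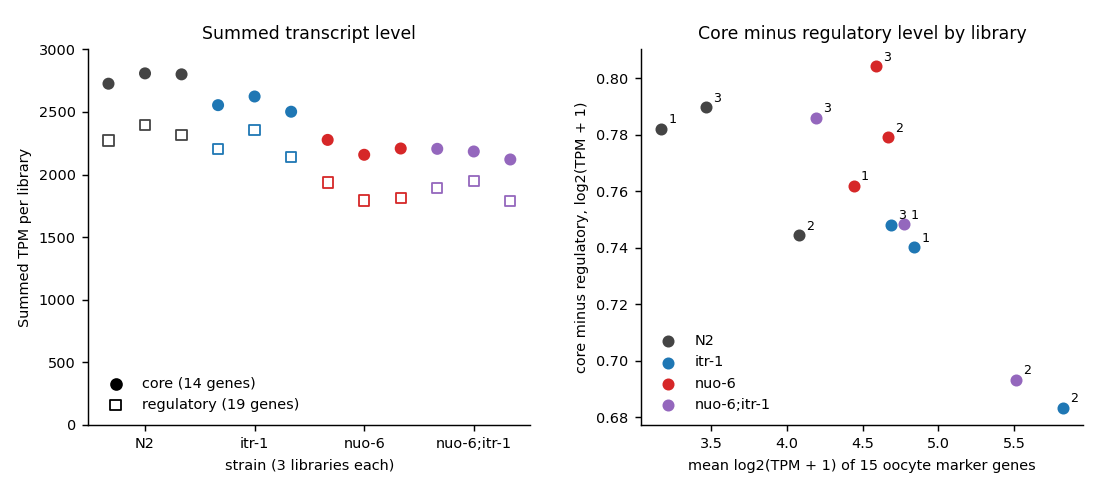
Left, summed TPM per library of the 14 core genes (filled circles) and the 19 regulatory genes (open squares) in the 4 strains. Right, core minus regulatory mean log2(TPM + 1) of each library against its mean log2(TPM + 1) of 15 oocyte marker genes, with the replicate number beside each point and the 2 lowest points at 0.683 (itr-1) and 0.693 (double mutant).

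Scaling changed the size of the folds in nuo-6 against N2 but not their direction. Median-of-ratios scaling, which sets the median gene near 0, moved the median of all genes in nuo-6 against N2 from 0.18 to 0.00 and the split of calls over all genes from 5676 up and 2292 down to 3645 up and 3851 down. The same scaling turned 4413 up and 1696 down into 2525 up and 3338 down in itr-1 against N2, and 7059 up and 2588 down into 4234 up and 4603 down in the double mutant against N2. The proteasome median in nuo-6 against N2 was then -0.55 with 33 of 33 genes called. Relative to the median of all genes it stood at -0.52 as deposited, -0.55 with median-of-ratios scaling, -0.55 with TPM re-closed without ribosomal protein genes and -0.34 after quantile normalization.

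Related complexes and pathways were set beside the proteasome. In nuo-6 against N2, 15% of the 15230 genes tested fell and 37.3% rose as deposited. With median-of-ratios scaling 3851 fell and 3645 rose, and after quantile normalization 4297 fell and 3176 rose. The CCT chaperonin, a folding complex of the cytosol, had 8 of 8 genes lower in nuo-6 than in N2 (median log2 fold -0.44), led by cct-8 (149 ± 4.44 to 95.8 ± 1.67 TPM, -0.63 ± 0.05, adjusted p = 4.95e-06) and cct-3 (-0.51 ± 0.05, adjusted p = 1.3e-05). The translation initiation factor eIF3, which shares an architecture with the lid, had 10 of 11 lower (median -0.38), led by eif-3.J (-0.75 ± 0.06) and eif-3.C (-0.68 ± 0.06). Cytosolic ribosomal protein genes were lower in 79 of 81 cases (median -0.35), but in 33 after quantile normalization, with 1 higher. The COP9 signalosome, the other lid-like complex, did not follow: csn-6 rose (0.21 ± 0.06, adjusted p = 0.0165), csn-1 fell (-0.18 ± 0.06, adjusted p = 0.0387), and the median of its 6 genes was -0.04. With median-of-ratios scaling or quantile normalization, however, 4 of the 6 fell and none rose, and the csn-1 call was lost without N2 replicate 2 or 3 (adjusted p = 0.114 and 0.122), any nuo-6 library (0.0784 to 0.0972) or double mutant replicate 1 (0.0550). The csn-6 call was also lost without N2 replicate 3 (adjusted p = 0.0684). In itr-1 against N2 the deposited values gave 1 of 8 CCT genes, 5 of 11 eIF3 genes (median -0.15) and 12 of 81 ribosomal genes lower. Over all genes tested, 11.1% were lower. These counts depended on the scaling: with median-of-ratios scaling 8 CCT, 11 eIF3 and 49 ribosomal genes were lower, and after quantile normalization 0 CCT and 3 eIF3 genes were lower, with 10 ribosomal genes higher and 5 lower. With the oocyte covariate the lower genes were 0 CCT, 0 eIF3 and 1 ribosomal, and 3 ribosomal genes were higher. Of the 15230 genes tested in itr-1 against N2, 3338 were lower with median-of-ratios scaling. After quantile normalization 3032 were lower and 2121 higher, and with the oocyte covariate 558 were lower and 1476 higher.

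Ubiquitin genes and proteasome partners had fewer calls as a list, with 1 of 31 higher and 9 lower in nuo-6 (median log2 fold -0.06), and 24 lower with median-of-ratios scaling. The deubiquitinase gene usp-14, whose product sits on the regulatory particle, went from 92.2, 102 and 95.6 TPM in N2 to 70.5, 64.3 and 66.1 (-0.52 ± 0.06, adjusted p = 6.17e-05), a fall of the size seen in rpn-5. The gene ubq-2, which encodes ubiquitin fused to a ribosomal protein, fell by 0.44 (SE 0.05, adjusted p = 3.03e-05). In itr-1 the deubiquitinase gene ubh-4, whose product is known to bind the proteasome, fell by 0.23 (SE 0.05, adjusted p = 0.00513) and the cullin gene cul-2 rose by 0.29 (SE 0.07, adjusted p = 0.0100). Under median-of-ratios scaling cul-2 no longer passed (0.11, adjusted p = 0.154), and neither gene passed with the oocyte covariate (cul-2 0.0815, adjusted p = 0.565; ubh-4 -0.23, adjusted p = 0.0784). The gene dss-1, chosen after its values were seen, encodes the small lid subunit known as Sem1 and lacks the rpn name. It stood at 309 ± 13.8 TPM in N2, 267 ± 5.99 in itr-1, 305 ± 2.68 in nuo-6 and 284 ± 20.2 in the double mutant, with a log2 fold of -0.01 ± 0.05 in nuo-6 (adjusted p = 0.835) and -0.21 ± 0.05 in itr-1 (adjusted p = 0.0130).

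A list of 11 genes was drawn up around SKN-1A, among them skn-1, the peptide N-glycanase gene png-1, the protease gene ddi-1 and genes of endoplasmic reticulum degradation. It is broader than the SKN-1A pathway itself, as it also holds sel-9, xbp-1 and ubl-5. Transcript levels do not measure SKN-1A protein or its activity. The skn-1 transcript, summed over isoforms of which SKN-1A is one, was 39.1, 37.0 and 41.9 TPM in N2, 51.1, 48.4 and 48.0 in itr-1, 57.2, 64.8 and 64.0 in nuo-6, and 67.6, 72.6 and 70.1 in the double mutant. It rose in nuo-6 (0.64 ± 0.07, adjusted p = 1.78e-05), in itr-1 (0.32 ± 0.07, adjusted p = 0.00417) and in the double mutant (0.82 ± 0.07, adjusted p = 2.01e-06), the strains ranked without overlap, while most proteasome genes fell in nuo-6 and the double mutant. In itr-1 the skn-1 transcript no longer passed under median-of-ratios scaling (0.14, adjusted p = 0.15) or with the oocyte covariate (0.32, adjusted p = 0.0720). The other called genes in nuo-6 were sel-9 (-0.32 ± 0.05, adjusted p = 0.000520), a p24 family member, and cdc-48.2 (-0.29 ± 0.05, adjusted p = 0.000851), a segregase gene that was named after its values were seen. The list's median was 0.01, and 6 of its genes fell with median-of-ratios scaling.

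**Figure D5:**
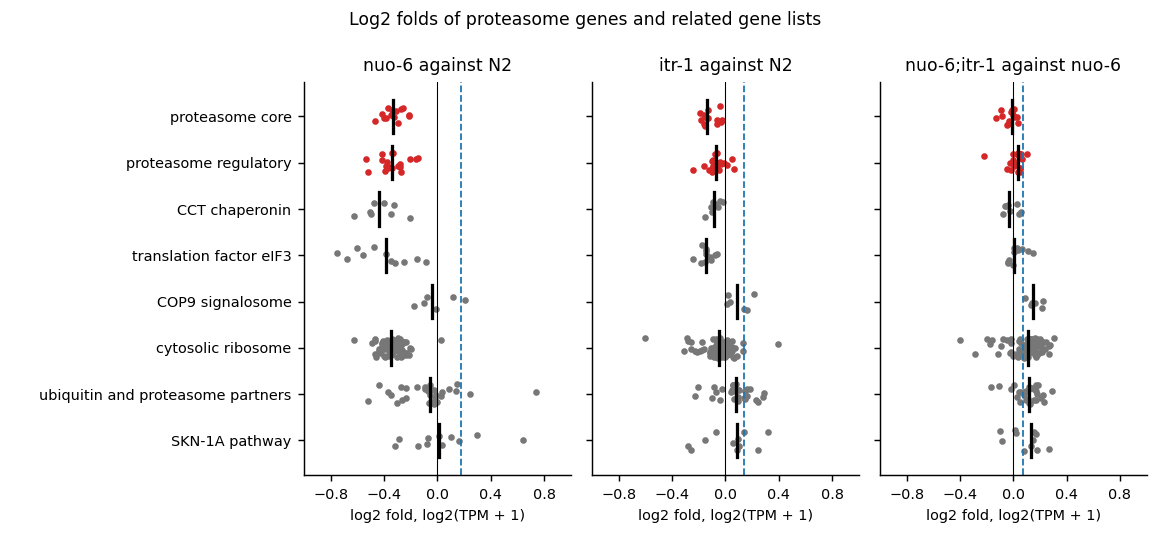
Log2 folds on the log2(TPM + 1) scale of the proteasome core and regulatory genes (red) and of 6 related gene lists (grey), with 1 point per gene, a black bar at each list's median and a dashed blue line at the median of all genes tested. Proteasome, CCT and eIF3 genes and 80 of 81 ribosomal genes lie left of 0 in nuo-6 against N2, and most ribosomal genes lie right of 0 in the double mutant against nuo-6, where 29 rose as deposited and 0 with median-of-ratios scaling.

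In the double mutant against nuo-6 the counts of the ribosomal and proteasome lists differed: 29 of 81 ribosomal genes rose and 1 fell (median 0.11), while 0 of 33 proteasome genes passed. Over all genes tested, 9.99% rose and 5.46% fell. With median-of-ratios scaling 0 ribosomal genes rose and 2 fell. CCT and eIF3 had no called gene in that comparison, and the difference between lists was not tested.

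The genes were also compared by position. They lie on chromosome I (10 genes), II (7), III (8), IV (3) and V (5), with 0 on chromosome X, which holds 13.8% of the protein-coding genes tested. Of the 10 on chromosome I 7 are core genes, and of the 8 on chromosome III 7 are regulatory. The genes are short, with a median length of 1490 bases (932 to 4010), against 2333 bases for all protein-coding genes tested. A protein-coding neighbour on the same strand within 500 bases was found for 16 of 33 genes (48.5%) and for 33.8% of protein-coding genes tested. Of the 19 such neighbours that were tested and are not proteasome genes, 4 were lower and 4 higher in nuo-6, with a median log2 fold of 0.10. Over all genes tested, 15% were lower and 37.3% higher, with a median of 0.18. As examples chosen after their values were seen, one of the lower neighbours was chp-1, 198 bases downstream of pas-3 (-0.31 ± 0.05, adjusted p = 0.000719), and one of the higher was mrpl-32, a mitochondrial ribosomal gene 410 bases downstream of rpn-3 (0.41 ± 0.07, adjusted p = 0.000550).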

How the data were processed

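The TPM values for 46926 genes in 12 libraries were deposited by the authors. Per the labels' protocols, polyadenylated RNA of integrity number 10 was made into stranded libraries. The genome build was WBcel235, per the submitters' processing notes, while the sources used here name no aligner, counting tool or annotation version. Gene names and positions came from the Ensembl release 115 annotation, which held all 46926 identifiers.

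The 15230 genes that reached 1 TPM in 3 or more libraries were taken as log2(TPM + 1). A mean per strain was fitted with limma 3.58.1 in R 4.3.3 (eBayes with trend; residual degrees of freedom 8, prior 2.85), tested two-sided and adjusted by Benjamini-Hochberg over all genes in each of 6 comparisons. Read depth cannot be recovered from TPM, and counting intervals are therefore left out. No 2 libraries were identical.

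The members and lists were chosen with earlier results of these data known. Genes were named for the smallest adjusted p and largest fold among called members, for subgroup extremes in level, and for the 2 smallest adjusted p in each related list. No protein-coding gene carried the symbol ubc-2 of the partner list, and other names of that gene were not searched. Same-numbered N2 and nuo-6 libraries had deviation correlations of 0.112, 0.160 and 0.116. Differently numbered libraries were not compared, so these values do not establish a pairing, and the labels give none. The fit reported has no block, and one with the replicate number as a block over all strains is an alternative. Summaries used pandas 2.3.3 and numpy 2.4.6 under Python 3.11.15, and plots matplotlib 3.10.9.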

Additional observations from a re-analysis of the deposited data

Results flagged for a closer look

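In the lists set beside the proteasome, 3 of the genes named for their adjusted p had a nuo-6 difference that itself differed with the itr-1 genotype (interaction in limma, SE in brackets). The eIF3 gene eif-3.B had an interaction of 0.19 (0.06, adjusted p = 0.0488), with 106 ± 0.0636 TPM in N2, 99.9 ± 2.65 in itr-1, 94.9 ± 1.07 in nuo-6 and 103 ± 1.16 in the double mutant. The ribosomal protein gene rpl-36.A had 0.23 (0.06, adjusted p = 0.0284), with 6729, 6034, 5025 and 5272 TPM on average in the same order. The gene rpl-42 had -0.79 (0.21, adjusted p = 0.0328), at low levels of 2.85 ± 0.275, 4.07 ± 0.614, 1.95 ± 0.358 and 1.24 ± 0.354 TPM. With the oocyte marker mean as a covariate the adjusted p of these genes was 0.147, 0.197 and 0.203, and without all libraries numbered 2 it was 0.182, 0.0849 and 0.113. Leaving out 1 library at a time ended the call of eif-3.B in 12 of 12 cases (adjusted p from 0.0531 to 0.116), that of rpl-36.A in 6 of 12 (0.0133 to 0.0726) and that of rpl-42 in 8 of 12 (0.0280 to 0.0802).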

How the results depend on the processing

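Alternatives were a pseudocount of 0.1, median-of-ratios scaling, quantile normalization, a minimum of 5 TPM or none, TPM without ribosomal protein genes, a fit of only the groups compared, the replicate number as a block, the oocyte marker mean as a covariate, and the omission of each library. The omission of all libraries numbered 2 was added after the data were seen. Over 49 named proteasome folds and 22 alternatives, 1046 of 1078 values kept their direction and side of the threshold, 20 lost the call, 12 gained it and 0 reversed. These folds were all 33 of nuo-6 against N2 and, elsewhere, only the called genes with the smallest adjusted p or largest fold. Weaker calls were thus not counted. Among them were pas-4 in itr-1 against N2 (kept in 10 of 22) and pas-6 and rpt-6 in the double mutant against itr-1 (kept in 9 each).

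The count of lower genes in itr-1 against N2 (9) became 30 with median-of-ratios scaling, 4 with only the groups compared, 4 without all libraries numbered 2, and 4 to 11 without single libraries. In the double mutant against nuo-6 (0) it became 3 with median-of-ratios scaling, 1 with quantile normalization and 2 with the oocyte covariate. The count of higher genes in the interaction (0) became 3, 1 and 1 with median-of-ratios scaling, quantile normalization and TPM without ribosomal genes. With the oocyte covariate, core minus regulatory was 0.0679 in nuo-6 against N2, 0.0421 in itr-1 against N2, 0.0437 in the double mutant against N2 and -0.0663 in the interaction, against 0.01, -0.05, -0.03 and 0.01 without it, so the sign of the last 3 depended on that covariate. In comparisons with N2 that covariate cannot tell oocyte content from strain. Leaving out single libraries took the first and the last across 0 (-0.0042 to 0.0195 and -0.0128 to 0.0336). The differences of itr-1 (-0.0621 to -0.0280) and the double mutant (-0.0514 to -0.0051) from N2 stayed negative. The cause of these changes was not tested, except that fewer libraries leave fewer degrees of freedom.

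With the replicate block, 32, 9, 30, 0 and 30 genes were lower in nuo-6, itr-1 and the double mutant against N2, and in the double mutant against nuo-6 and against itr-1. Same-numbered libraries of other strain pairs had deviation correlations from -0.0195 to 0.506, also without differently numbered libraries for comparison. Replicate numbers were not taken as pairs. Depth is unknown, and 3 libraries per strain limit the precision.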

Other observations

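The profile of the proteasome genes over the 12 libraries was compared with those of 6491 other named protein-coding genes of at least 5 TPM on average, by the mean absolute difference of log2(TPM + 1) after each gene was centred on its own mean. The genes closest to the mean proteasome profile were chp-1 (distance 0.0259), which encodes a CHORD-domain protein, the segregase gene cdc-48.2 (0.0281), the mRNA export adaptor gene aly-3 (0.0289), the HSP90 co-chaperone gene cdc-37 (0.0308), mct-5 (0.0355), vpr-1 (0.0356), the dynein light chain gene dylt-1 (0.0362), the nascent polypeptide-associated complex gene icd-2 (0.0372), the oligosaccharyltransferase gene ostb-1 (0.0377) and eif-2Bepsilon (0.0394), a translation initiation factor gene. The proteasome genes themselves lay at 0.0227 to 0.133 from that mean, with a median of 0.0416, and the median over all genes tested was 0.279. That mean is formed by the proteasome genes themselves. Of the 6491 other genes compared, 13 were closer to it than the median proteasome gene, so the profile is not held by proteasome genes alone.

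The levels of these neighbours in profile followed the same steps between strains. The gene cdc-48.2 was at 173, 191 and 183 TPM in N2, 172, 177 and 172 in itr-1, 157, 145 and 146 in nuo-6, and 151, 157 and 146 in the double mutant. For cdc-37 the means were 104.01 ± 2.89 TPM in N2, 103 ± 4.07 in itr-1, 82.05 ± 3.96 in nuo-6 and 84.1 ± 3.96 in the double mutant, and for icd-2 they were 1152 ± 19.6, 1100.1 ± 6.37, 906 ± 35.3 and 904 ± 3.97 TPM. Their log2 folds in nuo-6 against N2 were -0.29 ± 0.05, -0.34 ± 0.06 and -0.35 ± 0.04. These genes were chosen for their likeness, so the folds are a description with no test.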
